A study of Mus musculus with 21 samples.

Results

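The 10 genes described here are members of the S100 family, followed across the cell types of lung, lung metastases and primary melanomas in mice. They are *S100a1*, *S100a4*, *S100a6*, *S100a8*, *S100a9*, *S100a10*, *S100a11*, *S100a13*, *S100a16* and *S100b*. They were taken by symbol from the 32285 genes of a single-cell count table that lists 17 genes of the family, so 10 of 17 are described as members. All 10 were detected, with the level of each taken per library and per cell type. The unit of level is CPM, the number of unique molecular identifiers (UMIs, each standing for 1 captured RNA molecule) of a gene per 1000000 UMIs of the cells summed. Levels are compared between cell types and tissues and not between genes.

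S100 proteins are small calcium-binding proteins with a pair of EF-hand motifs that mostly act as dimers. *S100a8* and *S100a9* form calprotectin, the main cytosolic protein of neutrophils, which is released in inflammation and is known as a ligand of the receptors *Tlr4* and *Ager* (RAGE). *S100a10* and *S100a11* bind annexins at membranes, *S100a4* binds nonmuscle myosin, *S100a6* binds calcyclin-binding protein (*Cacybp*), *S100a13* takes part in the export of *Fgf1*, *S100a1* is known from heart and muscle, and *S100b* is a marker of glia, Schwann cells and melanocytic cells.

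Fragments of MT-ret melanoma were transplanted subcutaneously into mT/mG mice of both sexes, and lung metastases were taken after resection of the primary tumor. In mT/mG mice all host cells carry the red membrane protein tdTomato under a ubiquitous promoter, no Cre was used, and the melanoma (MM) cells carry no label. Host cells of the tumor microenvironment (TME) were therefore sorted as tdTomato+ cells, in some libraries also as CD45- cells, and MM cells were sorted apart from them. The sources used here do not give the gate of each library. The paper reports that some adjacent tissue without tumor was in the metastasis samples. Cells given here as those of metastases are cells of the metastasis libraries. Which of them came from adjacent lung was not tested. The counts covered 16 libraries with 100359 cells. There were 4 of unchallenged lung (replicates 1, 4, 5 and 6), 4 of metastasis TME and 4 of primary tumor TME (replicates 1-3, 4, 5 and 6 of either), 2 of metastasis MM and 2 of primary tumor MM (replicates 4 and 5 of either). Replicates 1-3 are 1 sample in the labels. The deposited cell table names cells of 3 mice under it for primary tumors and of 2 mice for metastases, and these were summed as 1 library each. By the mouse numbers of the libraries kept, metastasis and primary tumor libraries of replicates 5 and 6 came from the same mice. Those of replicates 1-3 have 2 mice in common, while those of replicate 4 came from different mice. Counts identical to those of replicates 5 and 6 were also deposited under other mouse numbers.

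Libraries held 303 to 30419 cells and 1777036 to 60339415 UMIs, with a median of 1203 to 5356 UMIs per cell. Any 2 libraries shared up to 227 cell barcodes. The 16 cell classes were drawn from clusters of the same cells, with every S100 gene left out of the clustering and of the marker lists. Of these, 15 were named by their markers and 1 of 1732 cells, led by *Col2a1*, *Ccn2*, *Col27a1* and *Wnt4*, was left unnamed. Cells of a class were summed per library where there were at least 20 of them, which gave 113 sums. The labels give lung as the tissue of the primary tumor samples. The primary tumor TME libraries held 0 ciliated and 0 alveolar type 2 cells among 6477 cells, which allows a share of up to 0.0463% of either, but 9 club cells, 7 capillary endothelial cells and 2 aerocytes. Primary tumor MM replicate 5 held 12 ciliated cells. In sums of many cells, fewer expressing cells and less RNA per cell cannot be told apart. The replicates are libraries, so p-values between tissues measure the spread between these libraries only. Those between classes measure the spread of class sums that is left once library levels are taken out.

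Of the 10 genes, 9 lie on chromosome 3 of the GRCm38 assembly within 3.05 Mb. *S100a1*, *S100a13*, *S100a16*, *S100a4*, *S100a6*, *S100a8* and *S100a9* occupy the first 185 kb of that stretch, from chr3:90511034 on, and *S100a11* (chr3:93520488-93526287) and *S100a10* (chr3:93555080-93564643) lie further along. *S100b* lies alone on chromosome 10 (chr10:76253853-76261159). The annotation places *Gm42674* over *S100a4* on the same strand and *Dip2a* over *S100b* on the other strand.

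*S100a8* (chr3:90668978-90670035, plus strand) and *S100a9* (chr3:90692632-90695721, minus strand) are neighbors whose levels moved together in these cells, so the bases before their starts are shown. They are RefSeq reference sequence of GRCm38.p6, read 5′ to 3′ on the strand of the gene, for *S100a8* from chr3:90668821-90668977 and for *S100a9* from chr3:90695722-90695971. Capitals mark the matches to letters that C/EBP (TTGCNNAA) or PU.1 (GAGGAA, or TTCCTC on the other strand) are known to bind, both factors of myeloid cells.
S100a8: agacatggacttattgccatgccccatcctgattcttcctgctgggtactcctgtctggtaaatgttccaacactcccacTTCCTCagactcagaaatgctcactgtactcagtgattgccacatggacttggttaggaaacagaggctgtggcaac
S100a9: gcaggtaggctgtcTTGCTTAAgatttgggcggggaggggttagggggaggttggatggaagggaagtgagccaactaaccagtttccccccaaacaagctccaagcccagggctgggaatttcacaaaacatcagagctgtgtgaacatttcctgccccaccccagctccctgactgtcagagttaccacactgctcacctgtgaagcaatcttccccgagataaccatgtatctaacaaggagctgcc
The stretch of *S100a8* held 1 match to the PU.1 letters and that of *S100a9* held 1 match to the C/EBP letters, with both strands searched. Neither held the AP-1 letters TGANTCA. Among 32851 promoter windows cut to the same 157 bases, 15.3% held the PU.1 letters, and among windows of 250 bases 9.56% held the C/EBP letters. A match describes the sequence and shows no binding.

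The S100 genes split the cell types by kind. *S100a8*, *S100a9*, *S100a11* and *S100a6* were highest in neutrophils, *S100a4* in monocytes, C1q macrophages and T cells, *S100a10* in T and NK cells, *S100a16* in endothelium, *S100a1* in ciliated cells, alveolar macrophages and MM cells, and *S100b* in MM cells. Each class was compared with the mean of the other classes inside libraries by edgeR's quasi-likelihood test, with calls made where the adjusted p was under 0.05. Of 160 tests of the members, 37 were called higher and 37 lower, where 20.8% of all gene tests were called higher and 17.2% lower (38% in either direction). The median difference of all genes was −0.27 to 0.12 log2 depending on the class. Of the 74 calls, 52 held under every alternative tried. The members called numbered 8 of 10 in aerocytes (44.2% of all genes called), 7 in capillary endothelium (44.6%), 5 in large vessel endothelium (41.8%), 3 in fibroblasts (36.9%), 5 in ciliated cells (44.7%), 2 in club cells (14.7%) and 0 in alveolar type 2 cells (16.7%). They numbered 8 in neutrophils (58.2%), 7 in monocytes (55.7%), 5 in C1q macrophages (38.7%), 4 in alveolar macrophages (26.8%), 5 in T cells (34.4%), 4 in NK cells (34.2%), 5 in B cells (30.1%), 3 in MM cells (48.5%) and 3 in the unnamed class (37.9%). In the order of classes by their median level, 0 of 140 pairs of neighboring classes differed after adjustment by exact sign-flip permutation, and 1 did at an unadjusted p below 0.05. Pairs that share fewer than 6 libraries cannot reach that threshold. Even 10 shared libraries allow no p below 0.00195, which alone among 140 tests does not pass the adjustment. The 0 after adjustment therefore says nothing against the order of the classes.

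**Figure D1:**
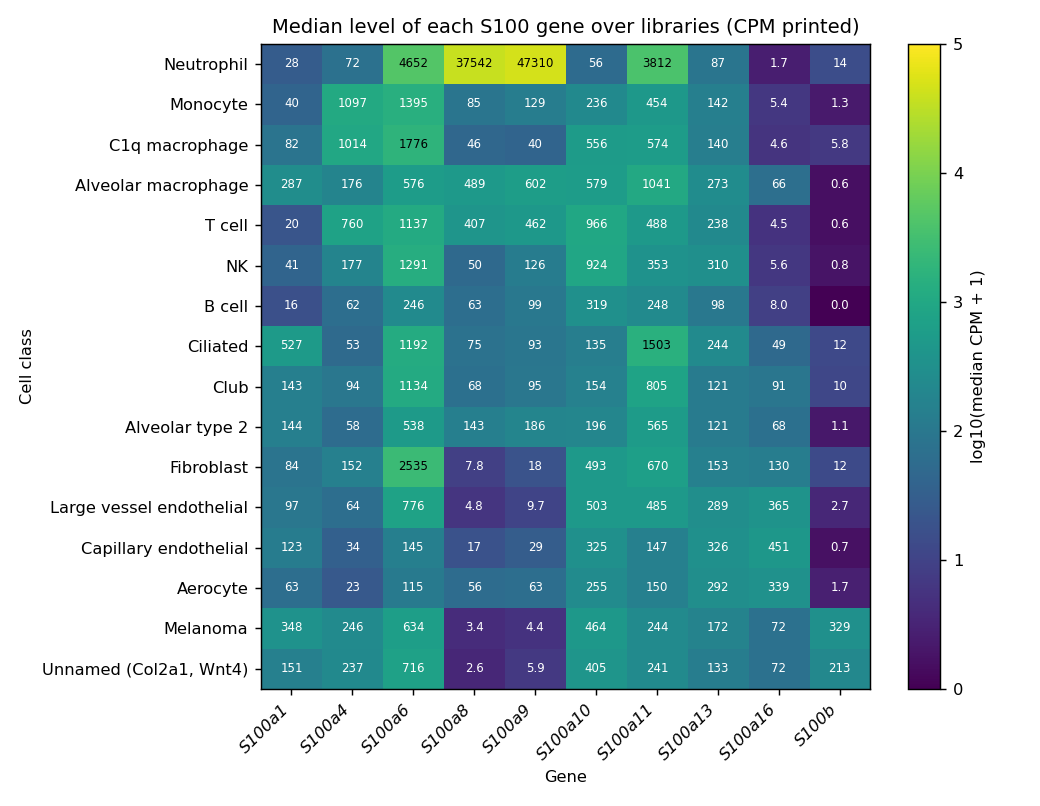
Level of each S100 member in each of 16 cell classes, as the median CPM over libraries with at least 20 cells of the class, on a log color scale. *S100a8* reached a median of 37542 CPM in neutrophils and at most 489 CPM in any other class, and *S100b* 329 CPM in MM cells and 213 CPM in the unnamed class.

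Of the members, *S100a8* and *S100a9* had the largest difference between a class and the mean of the other classes. In neutrophils *S100a8* stood at 26381 to 78402 CPM (median 37542, n = 10 libraries) and *S100a9* at 30368 to 88633 CPM (median 47310). The highest of the 103 sums of other classes reached 3108 CPM of *S100a8* and 3291 CPM of *S100a9*, so neutrophils did not overlap any other class. Against the mean of the other classes *S100a8* was 10.91 ± 0.41 log2 (SE) higher in neutrophils, with an edgeR adjusted p of 1.46e-42, and *S100a9* 10.93 ± 0.41 log2 higher (adjusted p of 1e-42). The *S100a8* value moved between 10.03 and 11.36 when any 1 library was left out and was 7.82 with no library block. Neutrophils were 2.71% of the cells in the 113 sums and held 66.5% of their *S100a8* UMIs and 68.2% of their *S100a9* UMIs.

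Per cell, *S100a8* was detected in 89.9% to 100% of neutrophils per library after each cell was thinned to 1000 UMIs (median 97.7%, unthinned 98.1%). The same share in MM cells, which should lack the gene, had a median of 0.187%. In B cells it had a median of 3.94%, but reached 58.7% in unchallenged lung replicate 6, where NK cells were at 65.3%, fibroblasts at 62.1% and neutrophils at 98.4%. *S100a9* made up 51.5% to 61.5% of the UMIs of the pair in neutrophils.

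Outside neutrophils the level of *S100a8* differed widely between libraries. It also differed between classes inside some of them, as from 22.4 to 1964 CPM in metastasis TME replicates 1-3. In unchallenged lung replicate 6 the other classes held 337 to 3108 CPM of *S100a8* (median 2319), while in unchallenged lung replicate 4 they held 0 to 21.3 CPM (median 0.47). Metastasis TME replicates 1-3 had a median of 489 CPM over the other classes and unchallenged lung replicate 5 a median of 143 CPM. In the other libraries of unchallenged lung and TME the median lay between 0 and 75.6 CPM. Other neutrophil transcripts moved with it. The summed level of 8 neutrophil genes (*Retnlg*, *Csf3r*, *Cxcr2*, *Mmp9*, *Ngp*, *Camp*, *Ltf* and *Lcn2*) in cells that were not neutrophils was 1220 CPM in unchallenged lung replicate 6, 353 CPM in metastasis TME replicates 1-3, 168 CPM in unchallenged lung replicate 5 and 25.8 CPM in unchallenged lung replicate 4. It was 591 CPM in metastasis TME replicate 6, where 1930 of its UMIs were of *Ltf*, which club cells also make, and *S100a8* was at 114 CPM. In the cells of unchallenged lung replicate 6 that were not neutrophils, *S100a9* made up 51.7% of the UMIs of the pair, against 51.9% in its neutrophils. The part that free neutrophil RNA has in these levels was not tested.

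**Figure D2:**
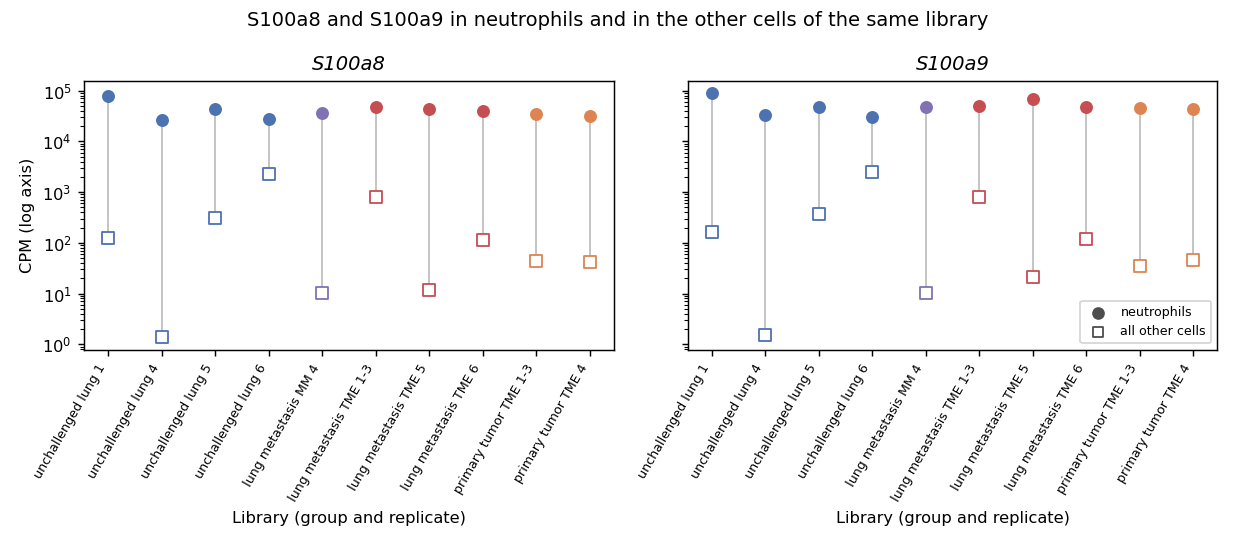
*S100a8* and *S100a9* in CPM on a log axis in the 10 libraries with at least 20 neutrophils, for neutrophils (filled points) and for all other cells of the same library summed (open squares), colored by group. Neutrophils hold 26381 CPM or more of *S100a8*, and the other cells run from 1.36 CPM in unchallenged lung replicate 4 to 2298 CPM in replicate 6.

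Monocytes, meaning here a cluster in which 8 of 8 nonclassical and 5 of 6 classical monocyte markers were raised, were the other class called higher for this pair. *S100a8* was 1.29 ± 0.48 log2 higher in monocytes than in the mean of the other classes (adjusted p of 0.0162) and *S100a9* 1.08 ± 0.47 log2 (adjusted p of 0.0443). Their *S100a8* ran from 1.97 CPM in primary tumor TME replicates 1-3 to 1964 CPM in metastasis TME replicates 1-3. The *S100a8* call was lost without unchallenged lung replicate 1 (0.86), metastasis TME replicates 1-3 (0.89) or 5 (1.15), or primary tumor TME replicate 4 (0.68). The *S100a9* call was lost without unchallenged lung replicate 1 (0.48), metastasis TME replicates 1-3 (0.81) or 5 (1.06), metastasis MM replicate 4 (1.07), primary tumor MM replicate 4 (1.07), or primary tumor TME replicate 4 (0.41), 5 (1.00) or 6 (1.00). Neither gene was called with RLE size factors or with no library block, nor *S100a9* by DESeq2 (adjusted p of 0.145). Over all alternatives the monocyte difference ran from 0.68 to 4.67 log2 for *S100a8* and from 0.41 to 4.47 log2 for *S100a9*. Aerocytes, capillary and large vessel endothelium were called lower for both genes. The aerocyte differences, −2.17 log2 for *S100a8* and −2.02 log2 for *S100a9*, were not called without unchallenged lung replicate 6 (−1.84 and −1.71), and for *S100a9* also without replicate 5 (−1.88). With no library block none of the 3 endothelial classes was called for either gene (adjusted p of 0.0998 to 0.325), and large vessel endothelium was not called in clusters of resolution 1.0.

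Within neutrophils the pair did not separate the tissues. *S100a8* stood at 78402, 26381, 43049 and 28168 CPM in unchallenged lung, at 47484, 42919 and 39328 CPM in metastasis TME replicates 1-3, 5 and 6, and at 35100 and 31704 CPM in primary tumor TME replicates 1-3 and 4. The metastasis and primary tumor values lay inside the range of unchallenged lung. None of 8 members tested was called between any of these tissues in neutrophils by edgeR, where 7.44% of all genes were called between metastasis TME and unchallenged lung, 3.92% between primary tumor TME and unchallenged lung and 0.0433% between metastasis and primary tumor TME. At an unadjusted p below 0.05 there were 3 members for metastasis TME against unchallenged lung. There was 1 for primary tumor TME against unchallenged lung, and there were 0 for metastasis against primary tumor TME. DESeq2 called 1 for metastasis TME against unchallenged lung and 0 for the others.

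*S100a11* and *S100a6* were the other members called higher in neutrophils. *S100a11* ran from 2790 to 5450 CPM there (median 3812, n = 10) and was 3.34 ± 0.13 log2 higher than the mean of the other classes, with an adjusted p of 1.09e-40. Neutrophils were above each other class of their library in 10 of 10 libraries for *S100a11*. *S100a6* ran from 3036 to 9360 CPM (median 4652) and was 3.29 ± 0.22 log2 higher, and here neutrophils led in 9 of 10 libraries. The exception was primary tumor TME replicate 4, where fibroblasts held 4631 CPM and neutrophils 3963 CPM. The annexin A2 partner *S100a10* went the other way, at 13.4 to 185 CPM in neutrophils (median 56.0) and −2.19 ± 0.24 log2 against the other classes. *S100a16*, *S100a1* and *S100a13* were lower as well. Together 4 members were called higher and 4 lower in neutrophils.

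*S100a4*, the metastasis-associated binder of nonmuscle myosin, was called higher in 3 leukocyte classes. It stood at 690 to 2622 CPM in monocytes (median 1097, n = 10), 427 to 1398 CPM in C1q macrophages (median 1014, n = 10) and 312 to 1079 CPM in T cells (median 760, n = 6). The differences from the mean of the other classes were 3.57 ± 0.22, 2.98 ± 0.23 and 2.52 ± 0.29 log2. Monocytes were above C1q macrophages in 8 of 10 libraries, but this order did not pass the exact permutation test (p = 0.0742, two-sided, adjusted p = 0.761). The smallest p that this test allows with 10 libraries, 0.00195, would not alone pass the adjustment, so the adjusted value cannot decide the order. Capillary endothelium, aerocytes, large vessel endothelium and ciliated cells were called lower, from −2.53 log2 in aerocytes to −1.42 log2 in ciliated cells, the latter not with no library block (−1.22, adjusted p of 0.0617). Neutrophils held a median of 72.2 CPM of *S100a4* and were not called in either direction, nor were NK cells, B cells or alveolar macrophages. In MM cells *S100a4* was measured at 206 to 406 CPM and was not called either.

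*S100a6*, also called calcyclin, was also called higher in fibroblasts (1.11 ± 0.28 log2), monocytes (1.29 ± 0.25 log2), C1q macrophages (1.07 ± 0.26 log2) and T cells (0.84 ± 0.33 log2). Fibroblasts had a median of 2535 CPM, from 559 CPM in unchallenged lung replicate 4 to 4631 CPM in primary tumor TME replicate 4. The monocyte call was lost in clusters of resolution 1.0 (0.40 log2). The T cell call was lost without unchallenged lung replicate 4 (0.59) or 5 (0.65), metastasis TME replicate 5 (0.77) or primary tumor TME replicate 4 (0.76), and also by DESeq2 (adjusted p of 0.0568), with S100 genes kept in the clustering (0.68), in clusters of resolution 1.0 (0.46) and with no library block (0.36). The endothelium of the lung capillaries was at the low end, at −2.90 ± 0.45 log2 in aerocytes and −2.55 ± 0.38 log2 in capillary endothelium. B cells were lower by a smaller margin (−0.98 ± 0.36 log2), which was lost without metastasis MM replicate 4 (−0.72) or metastasis TME replicate 4 (−0.81) and with at least 50 cells a sum (−0.99).

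*S100a10*, which forms a heterotetramer with annexin A2 and serves as a plasminogen receptor at the cell surface, led in lymphoid cells other than B cells. T cells held 473 to 2118 CPM (median 966, n = 6) and NK cells 472 to 1338 CPM (median 924, n = 5). These were 1.71 ± 0.21 and 1.63 ± 0.23 log2 above the mean of the other classes. Alveolar macrophages (1.21 ± 0.24 log2) and C1q macrophages (0.75 ± 0.18 log2) were called higher too. The call in fibroblasts (0.49 ± 0.20 log2) was lost without unchallenged lung replicate 5 (0.19), and also with no low-count filter (adjusted p of 0.0524), with at least 50 cells a sum (0.0687) and with S100 genes kept in the clustering (0.0606). Besides neutrophils, ciliated cells (−1.21 ± 0.29 log2) and aerocytes (−0.68 ± 0.26 log2) were lower, the latter not without unchallenged lung replicate 4 (−0.62), 5 (−0.64) or 6 (−0.55) or metastasis TME replicate 5 (−0.60), in clusters of resolution 1.0 (adjusted p of 0.0518) or with no library block (0.0572).

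*S100a11* was shared by neutrophils with airway cells and alveolar macrophages. Ciliated cells held 909 to 2370 CPM (median 1503, n = 5; 1.62 ± 0.20 log2), alveolar macrophages 792 to 1496 CPM (1.22 ± 0.21 log2) and club cells 744 to 808 CPM (1.10 ± 0.23 log2). Aerocytes (−2.01 ± 0.26 log2), capillary endothelium (−1.94 ± 0.22 log2), MM cells (−1.07 ± 0.28 log2), B cells (−1.04 ± 0.22 log2) and the unnamed class (−1.41 ± 0.24 log2) were lower.

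*S100a16*, a member expressed in many tissues, separated endothelium from leukocytes. Capillary endothelium held 344 to 592 CPM (median 451, n = 8), large vessel endothelium 211 to 572 CPM (median 365, n = 11) and aerocytes 124 to 424 CPM (median 339, n = 6). The differences were 3.56 ± 0.19, 3.00 ± 0.18 and 2.63 ± 0.22 log2. The lowest of 25 endothelial sums was 124 CPM and the highest of 48 sums of leukocytes other than alveolar macrophages was 45.7 CPM, with 13 of the latter at 0, so the groups did not overlap. Fibroblasts (1.39 ± 0.23 log2) and club cells (1.21 ± 0.34 log2) were called higher as well, club cells not without metastasis TME replicate 6 (0.92). Neutrophils, monocytes, C1q macrophages, T, NK and B cells, each of the 6 leukocyte classes just counted, were called lower, from −2.71 log2 in monocytes to −1.12 log2 in B cells. The B cell call was lost in clusters of resolution 1.0 (−0.70) and with at least 50 cells a sum (−0.77).

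*S100a13*, which is part of the release complex of *Fgf1* and interleukin 1α, varied least between classes. Its medians ran from 87.5 CPM in neutrophils to 326 CPM in capillary endothelium. Capillary (0.72 ± 0.14 log2), aerocyte (0.64 ± 0.16 log2) and large vessel endothelium (0.63 ± 0.13 log2) were called higher. NK cells (0.64 ± 0.18 log2) were not called without unchallenged lung replicate 4 (0.47), nor alveolar macrophages (0.57 ± 0.18 log2) without metastasis TME replicates 1-3 (0.49). B cells (−1.11 ± 0.19 log2), neutrophils (−0.77 ± 0.16 log2) and the unnamed class (−0.66 ± 0.18 log2) were lower.

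*S100a1* was highest in ciliated cells, at 797, 527 and 315 CPM in unchallenged lung replicates 1, 5 and 6 and at 1067 and 339 CPM in metastasis TME replicates 5 and 6. This was 2.36 ± 0.23 log2 above the other classes (adjusted p of 4.25e-16). Alveolar macrophages held 206 to 522 CPM (2.03 ± 0.24 log2) and MM cells 179 to 534 CPM (1.24 ± 0.30 log2, n = 6). Lymphocytes were at the low end, with a median of 19.6 CPM in T cells (−2.42 ± 0.37 log2), and B cells were lower by −1.44 ± 0.31 log2. Neutrophils (−1.25 ± 0.26 log2) and monocytes (−1.20 ± 0.24 log2) were lower too. The NK cell call (−0.83 ± 0.31 log2) was lost without metastasis TME replicates 1-3 (−0.69) or 4 (−0.61), with at least 50 cells a sum (−0.69) and in clusters of resolution 1.0 (−0.61).

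**Figure D3:**
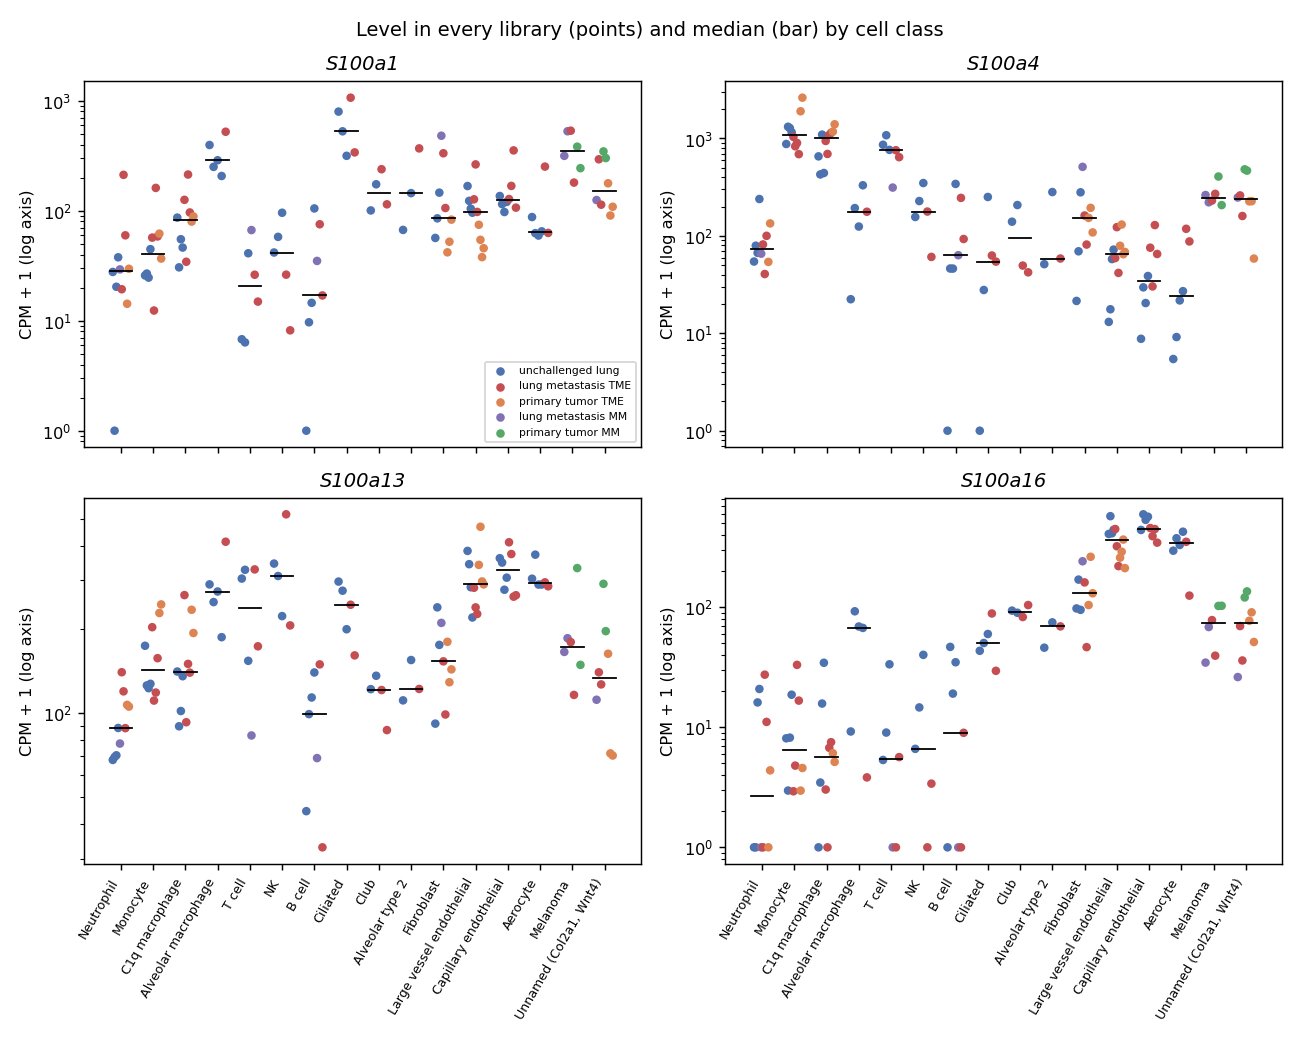
Level of *S100a1*, *S100a4*, *S100a13* and *S100a16* in each library (points, colored by group) and their median (bar) by cell class, as CPM + 1 on a log axis. *S100a16* lies at 124 CPM or more in each endothelial sum and at 45.7 CPM or less in each leukocyte sum other than alveolar macrophages.

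*S100b* was nearly restricted to MM cells. It stood at 358 and 308 CPM in metastasis MM replicates 4 and 5, at 297 and 237 CPM in primary tumor MM replicates 4 and 5, and at 350 and 474 CPM in the MM cells found among metastasis TME replicates 5 and 6. MM cells were 3.27 ± 0.32 log2 above the mean of the other classes (adjusted p of 1.09e-14) and held 93.8% of the *S100b* UMIs of the 113 sums while making up 50.4% of their cells. The unnamed class came next at 110 to 339 CPM (2.81 ± 0.29 log2), and its cells also carried 5808 to 22245 CPM of 8 melanoma genes (*Dct*, *Tyrp1*, *Pmel*, *Mlana*, *Cited1*, *Cst6*, *Syt4* and *Mitf*). The highest of the 99 sums of the other classes was 138 CPM, and 31 of them were at 0. After thinning to 1000 UMIs, *S100b* was detected in a median of 25.0% of MM cells per library (unthinned 64.6%) and in a median of 0% of large vessel endothelial cells (n = 11 libraries). In that class the share was at most 0.256% in unchallenged lung, but 11.1% and 5.68% in metastasis TME replicates 5 and 6 and 2.77% in primary tumor TME replicate 6.

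Ciliated cells were the other class called higher for *S100b*, by 1.89 ± 0.35 log2, a call that was lost with no library block (1.62 log2, adjusted p of 0.0821). They held 7.05, 11.8 and 10.8 CPM in unchallenged lung replicates 1, 5 and 6, where there was no MM cell, and 11.8 CPM was the highest of the 48 sums of unchallenged lung, 24 of which were at 0. Monocytes (−1.37 ± 0.44 log2) and C1q macrophages (−1.16 ± 0.44 log2) were called lower, the latter not without primary tumor TME replicate 4 (−0.81) or by DESeq2 (adjusted p of 0.0962). Neither was called in clusters of resolution 1.0 or with no library block.

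In libraries with tumor, *S100b* was found in host classes too, and melanoma genes moved with it. *S100b* passed the low-count filter in 14 of 23 comparisons between tissues. Since it was at or near 0 in unchallenged lung, it passed against lung mostly through the tumor libraries. The direction of those differences was thus largely set by the filter, and how many were positive is not given. Those that were called still enter the counts of calls below. The named cells other than MM cells held 93.0 CPM of *S100b* in metastasis TME replicate 5, a library in which 41.3% of cells were MM cells, and 40.5 CPM in primary tumor TME replicate 6. The same cells carried 5931 and 4279 CPM of the 8 melanoma genes. In unchallenged lung they held 0.10 to 3.87 CPM of *S100b* and 8.09 to 30.3 CPM of the list. Per 1000 UMIs of the list there were 12.4 to 19.8 UMIs of *S100b* in MM cells and 9.47 to 25.4 in the other named cells of libraries with tumor. The part of MM cell RNA in these levels was not tested further.

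**Figure D4:**
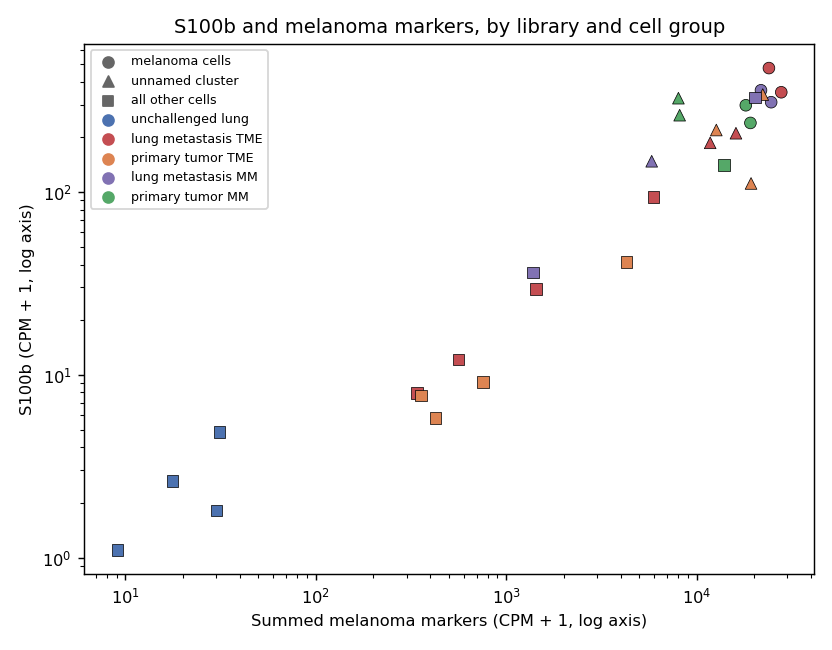
*S100b* against the sum of 8 melanoma genes, both as CPM + 1 on log axes, for MM cells (circles), the unnamed class (triangles) and all other cells (squares) of each library, colored by group. Cells of libraries with tumor hold more of both than those of unchallenged lung, where *S100b* is at most 3.87 CPM.

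Tissues were then compared inside each class, where both tissues had at least 2 libraries. The primary tumors grew under the skin, and lung is the only unchallenged tissue. Tumor and organ therefore cannot be told apart where primary tumors are compared with lung, nor site and organ where they are compared with metastases. Over 23 such comparisons, 15 of 210 member tests were called higher and 5 lower, where 3.71% of all gene tests were called (2.06% higher and 1.65% lower). The calls higher include *S100b* against lung in C1q macrophages and large vessel endothelium of metastases and in fibroblasts of primary tumors. Their direction was largely set by the filter, so the count of calls higher overstates what the members show. Among the calls lower, those of *S100a8* and *S100a9* in large vessel endothelium of primary tumors rest on unchallenged lung replicates 5 and 6. They give no support for a difference. Large vessel endothelium held 10 of the 20 calls, in comparisons that called 21.3%, 8.51% and 3.51% of all genes. Many calls in this class are therefore not particular to the members. In 13 comparisons none of the members was called by edgeR, with 20 of 115 tests at an unadjusted p below 0.05 and 7 called by DESeq2. They include metastasis TME against unchallenged lung in B cells (0.041% of all genes called), T cells (0.0113%), NK cells (0%), monocytes (0.289%) and fibroblasts (0.889%), and metastasis against primary tumor TME in fibroblasts (1.1%) and the unnamed class (0.126%). Counts of members at an unadjusted p or by DESeq2 stand without the share of all genes, here and for the other host classes. Such counts show no excess of members. Among all genes, 187 of 4878 in B cells and 1617 of 7078 in C1q macrophages of metastases had an unadjusted p below 0.05 against lung. Most calls rested on few libraries. Of the 20, 5 held under every alternative that could test them, and 2 of these 5 could be tested without each library in turn. In the other 3 the gene fell under the low-count filter without 1 of the libraries that carry it. The replicate numbers used here are those of the labels. By the runs named in the deposited cell table, these numbers also mark the run. Replicates 1 and 1-3 were in run 1, replicate 4 in run 2 and replicates 5 and 6 in run 3. Values within the run of replicates 5 and 6, and those of the fit with the replicate block, are given where they lose a call. Calls gained under them enter only the totals given at the end.

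Large vessel endothelium of primary tumors differed from that of unchallenged lung in 6 of 10 members, where 21.3% of all genes were called. In primary tumor TME replicates 1-3, 4, 5 and 6 this class held 42, 126, 116 and 256 cells. Only 7 capillary endothelial cells and 2 aerocytes were named in primary tumors, so the class may hold endothelium of other vessels there, which was not tested. *S100a6* stood at 128, 68.5, 381 and 529 CPM in unchallenged lung replicates 1, 4, 5 and 6 and at 1407, 1983, 1480 and 1630 CPM in primary tumor TME replicates 1-3, 4, 5 and 6, so the tissues did not overlap. The difference was 2.59 ± 0.50 log2 with an adjusted p of 0.00123. *S100a11* followed, at 464, 246, 313 and 306 CPM in unchallenged lung against 1228, 1130, 979 and 767 CPM in primary tumors, a difference of 1.67 ± 0.26 log2 (adjusted p of 0.000236). Both genes were called without any 1 library and within the run of replicates 5 and 6 (1.82 and 1.53 log2).

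*S100a10*, *S100a1*, *S100a8* and *S100a9* made up the other calls in this comparison. *S100a10* was at 602, 503, 317 and 238 CPM in unchallenged lung and 938, 726, 819 and 582 CPM in primary tumors, with 1 lung library above the lowest tumor library. Its difference of 0.93 ± 0.32 log2 (adjusted p of 0.0461) was no longer called without unchallenged lung replicate 4 (1.04), 5 (0.82) or 6 (0.75), metastasis TME replicate 6 (0.94), or primary tumor TME replicates 1-3 (0.85), 4 (0.94) or 5 (0.90), with at least 50 cells a sum (0.85), or with the replicate block (1.07, adjusted p of 0.0599). *S100a1* went down, from 167, 122, 104 and 95.1 CPM to 73.6, 53.4, 36.9 and 44.7 CPM (−1.23 ± 0.33 log2, adjusted p of 0.0139). It was not called without primary tumor TME replicate 5 (−1.10) or 6 (−1.16), nor within the run of replicates 5 and 6 (−1.24, adjusted p of 0.0829) or with the replicate block (−1.14, adjusted p of 0.0515).

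*S100a8* was lower by 5.88 ± 1.48 log2 in large vessel endothelium of primary tumors and *S100a9* by 5.57 ± 1.41 log2 (adjusted p of 0.00885 and 0.00929). The lung values of *S100a8* were 4.84, 0, 177 and 808 CPM and those of primary tumors 4.60, 10.2, 2.84 and 0 CPM. The tissues overlapped, and the high values are those of unchallenged lung replicates 5 and 6, the lung libraries in which *S100a8* was high in the cells that were not neutrophils. Without unchallenged lung replicate 5 or 6, *S100a8* fell under the low-count filter and was not tested. It passed the filter through these libraries, so the direction of its call was largely set beforehand and gives no support for a difference. *S100a9* was not called with the replicate block (−5.09 log2, adjusted p of 0.0570). It was still called without unchallenged lung replicate 5 or 6, at −5.71 and −3.86 log2, and was at −8.68 log2 without primary tumor TME replicate 4, which held the most of the primary tumor libraries (17.8 CPM of *S100a9*). Unchallenged lung replicates 1, 4, 5 and 6 held 4, 0, 298 and 293 UMIs of *S100a9* in this class. The tissues overlapped here too, at 0 to 871 CPM in lung and 0 to 17.8 CPM in primary tumors. *S100a9* was thus high only in lung replicates 5 and 6, and its call gives no support for a difference either. Within the run of replicates 5 and 6, where both primary tumor libraries held 0 *S100a9*, the fitted value of −11.96 log2 is no bound.

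The large vessel endothelium of metastases lay between for *S100a6*. It held 611, 1330 and 776 CPM in metastasis TME replicates 4, 5 and 6, above each unchallenged lung library and below each primary tumor library. The difference from lung was 1.81 ± 0.51 log2 (adjusted p of 0.0387), with 2 of 10 members called where 8.51% of all genes were. It was not called without unchallenged lung replicate 1 (1.57), 4 (1.47) or 5 (2.00), metastasis TME replicate 5 (1.36), or any 1 primary tumor library, which leave the difference between 1.79 and 1.81 log2 with adjusted p of 0.0501 to 0.0584, nor with the replicate block (1.68, adjusted p of 0.0968). The other member called was *S100b*, at 0, 117 and 40.7 CPM in metastases against 2.42, 0, 2.67 and 0 CPM in lung (5.28 ± 0.82 log2, adjusted p of 0.000967). Being at or near 0 in lung, the gene passed the low-count filter mostly through the tumor libraries. The direction was thus largely set beforehand, and the call gives no support for a difference. Metastasis TME replicate 4 had 0 *S100b*, and replicate 5, with the most, is the TME library with the most MM cells. Without metastasis TME replicate 5, unchallenged lung replicate 5 or primary tumor TME replicate 4, 5 or 6 the gene fell under the low-count filter and was not tested. It was called without any 1 of the others.

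Between metastasis and primary tumor TME, 2 of 10 members were called in this class, where 3.51% of all genes were. *S100a1* was 1.84 ± 0.35 log2 higher in metastases (adjusted p of 0.00568), at 126, 263 and 96.7 CPM, but was not called without metastasis TME replicate 5 (1.10, adjusted p of 0.091). MM cells of that replicate held 534 CPM of *S100a1*. The 8 melanoma genes summed to 582, 7908 and 1328 CPM in large vessel endothelium of metastasis TME replicates 4, 5 and 6 and to 220 to 1701 CPM in that of primary tumors, so the library with the most *S100a1* was also the one with the most of these genes. Their part in the *S100a1* difference was not tested. *S100b* was 2.56 ± 0.60 log2 higher (adjusted p of 0.0233) against 0, 10.2, 8.51 and 19.7 CPM in primary tumors. DESeq2 did not call *S100b* (adjusted p of 0.472), and neither did the fit with the replicate block (1.89 log2, adjusted p of 0.223), which pairs libraries of the same mice in replicates 5 and 6. It was not tested without unchallenged lung replicate 5, metastasis TME replicate 5 or primary tumor TME replicate 4, 5 or 6, for the reason given above.

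**Figure D5:**
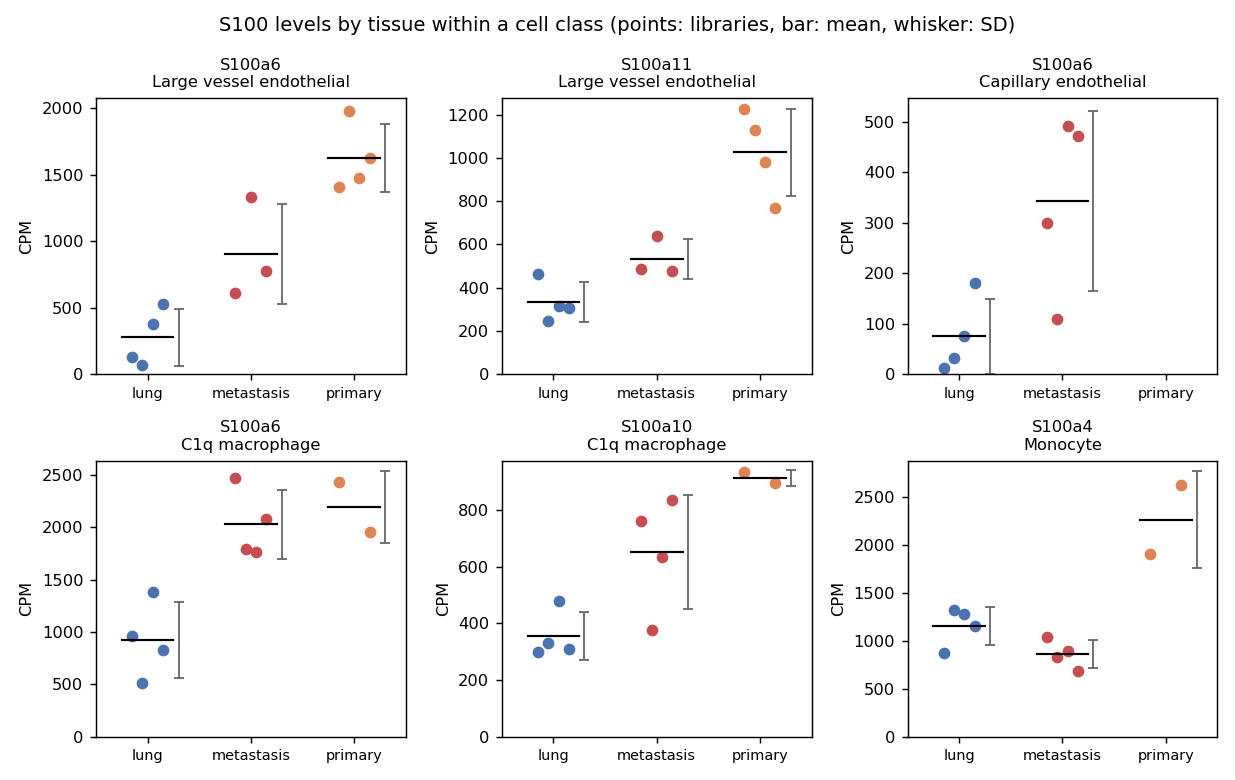
Level in CPM per library (points), mean (bar) and SD (whisker) of 6 pairs of member and class in unchallenged lung, metastasis TME and primary tumor TME, with no primary tumor library for capillary endothelium. In large vessel endothelium the *S100a6* points of unchallenged lung (68.5 to 529 CPM), metastasis TME (611 to 1330 CPM) and primary tumor TME (1407 to 1983 CPM) do not overlap.

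The capillary classes were compared between metastasis TME and unchallenged lung only. In aerocytes *S100a4* stood at 4.45, 8.15, 20.8 and 26.1 CPM in lung and 117 and 86.7 CPM in metastasis TME replicates 5 and 6 (3.02 ± 0.50 log2, adjusted p of 0.00496). *S100a6* stood at 42.2, 22.6, 69.2 and 161 CPM in lung and 376 and 372 CPM in metastases (2.54 ± 0.53 log2, adjusted p of 0.0206). Neither gene overlapped between the tissues, and 2 of 9 members were called where 3.17% of all genes were. In the same aerocyte sums *S100b* was at 0, 0, 1.06 and 2.37 CPM in lung and 95.7 and 12.4 CPM in metastases, and the 8 melanoma genes at 11.8 to 25.6 CPM in lung and 7177 and 1746 CPM in metastases. MM cells of metastasis TME replicate 5 held 229 CPM of *S100a4* and 652 CPM of *S100a6*. The part of MM cell RNA in these differences was not tested. With metastasis TME replicate 5 left out *S100a4* was not called (2.52), and *S100a6* was not called without replicate 5 (2.36) or replicate 6 (2.61), or with sums of at least 10 cells (2.11, adjusted p of 0.130). In capillary endothelium *S100a6* was at 12.6, 31.8, 75.0 and 180 CPM in lung and 299, 109, 492 and 472 CPM in metastases and did not pass the test (2.42 ± 0.67 log2, adjusted p of 0.219). Of 9 members 0 were called there by edgeR (0.382% of all genes), 3 had an unadjusted p below 0.05 and DESeq2 called 1.

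In C1q macrophages *S100a6* was called higher at either tumor site than in lung. It was at 962, 510, 1385 and 829 CPM in unchallenged lung, at 2470, 1787, 1764 and 2080 CPM in metastasis TME and at 2433 and 1953 CPM in primary tumor TME replicates 1-3 and 4, with no overlap of lung and either site. The differences were 1.14 ± 0.29 log2 in metastases (adjusted p of 0.0255) and 1.29 ± 0.34 log2 in primary tumors (adjusted p of 0.0275). The metastasis call was lost without unchallenged lung replicate 1 (1.18), 4 (0.95) or 6 (1.06) or metastasis TME replicates 1-3 (1.00) or 6 (1.12), within the run of replicates 5 and 6 (0.89, adjusted p of 0.158), and with the replicate block (adjusted p of 0.0857). The primary tumor call was lost without unchallenged lung replicate 4 (1.11) or 6 (1.2) or primary tumor TME replicates 1-3 (1.14) or 4 (1.45), and with the replicate block (1.47, adjusted p of 0.137).

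*S100a10* was likewise higher in C1q macrophages of primary tumors, at 932 and 893 CPM against 300, 330, 480 and 311 CPM in lung (1.40 ± 0.34 log2, adjusted p of 0.0168). With either primary tumor library left out it was not called (1.39 without replicates 1-3 and 1.44 without replicate 4), nor with the replicate block (1.44, adjusted p of 0.139). *S100b* was not detected in C1q macrophages of the 4 lung libraries. It was at 7.10, 25.0, 40.2 and 15.2 CPM in metastasis TME, at least 9.18-fold higher over the group, taking a floor of 3 UMIs over all lung libraries. The gene passed the low-count filter only through the tumor libraries, which set the direction beforehand. Its call (edgeR adjusted p of 0.0166) therefore gives no support for a difference. Without metastasis TME replicate 4 or 5 it fell under the low-count filter. In primary tumors it was at 5.81 CPM in either library, at least 3.86-fold higher, and was not called (adjusted p of 0.0683). In this class 2 of 9 members were called against lung for either site, with *S100b* among them for metastases. Of all genes, 7.74% were called for metastases and 8.84% for primary tumors. Between the sites 0 members and 0% of all genes were called by edgeR, and DESeq2 called 0 members, with 0 at an unadjusted p below 0.05.

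In monocytes *S100a4* was lower in metastases than in primary tumors. It was at 1037, 831, 898 and 690 CPM in metastasis TME and at 1902 and 2622 CPM in primary tumor TME replicates 1-3 and 4, without overlap, a difference of −1.50 ± 0.27 log2 (adjusted p of 0.0183). Unchallenged lung, at 877, 1319, 1277 and 1158 CPM, lay below both primary tumor libraries and overlapped metastases. It was the only call among 9 members here, where 1.22% of all genes were called, and it was lost without metastasis TME replicate 4 (−1.47) or 6 (−1.41), primary tumor TME replicates 1-3 (−1.78) or 4 (−1.27), and with the replicate block (−1.39, adjusted p of 0.0528). Against unchallenged lung, *S100a4*, *S100a6*, *S100a10*, *S100a11* and *S100a13* of primary tumor monocytes had differences of 1.09, 1.09, 1.70, 1.10 and 0.92 log2 that were not called by edgeR (adjusted p of 0.0733 to 0.132), where 0.495% of all genes were. All 5 had an unadjusted p below 0.05, and DESeq2 called 4 members. The shares of all genes by these 2 criteria are not given, so these counts show no excess of members.

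Airway cells and fibroblasts had 1 call each. In ciliated cells *S100b* was at 102 and 67.7 CPM in metastasis TME replicates 5 and 6 against the lung values given above (3.02 ± 0.45 log2, adjusted p of 0.0151, where 0.405% of all genes were called). This was lost without unchallenged lung replicate 1 (2.96, which is also the value within the run of replicates 5 and 6 and with at least 50 cells a sum), metastasis TME replicate 5 (2.59) or 6 (3.33). In club cells *S100a9* was at 121 and 1922 CPM in unchallenged lung replicates 5 and 6 and at 17.9 and 68.8 CPM in metastasis TME replicates 5 and 6 (−4.53 ± 1.03 log2, adjusted p of 0.0468, where 1.65% were called). Without unchallenged lung replicate 6 it was at −1.71 log2, and it was also lost without metastasis TME replicate 5 (−4.06) or 6 (−5.28) and by DESeq2 (adjusted p of 0.168).

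In fibroblasts *S100b* was at 12.4, 8.10 and 46.3 CPM in primary tumor TME replicates 4, 5 and 6 and at 0, 1.98 and 3.13 CPM in unchallenged lung replicates 4, 5 and 6 (3.30 ± 0.84 log2, adjusted p of 0.0338, where 12.2% of all genes were called). It was not called without unchallenged lung replicate 4 (3.15), 5 (3.24) or 6 (4.06), metastasis TME replicate 5 (3.35) or primary tumor TME replicate 6 (2.15), nor within the run of replicates 5 and 6 (3.42, adjusted p of 0.0505). Fibroblasts came from 3 clusters, of which 1 had 83.6% of its cells in unchallenged lung replicate 6 and another 95.3% in primary tumor TME replicate 6. *S100a6* and *S100a16*, which were called higher in fibroblasts than in other classes, were not called between tissues there by edgeR or DESeq2. DESeq2 called 3 members between primary tumor TME and unchallenged lung in fibroblasts, *S100b* and, lower in primary tumors, *S100a8* and *S100a9*, and 1 between metastasis TME and unchallenged lung, which was *S100b*. The edgeR adjusted p of *S100a8* and *S100a9* in the first of these were 0.0542 and 0.0535. For both genes the tissues overlapped, and the high values are those of unchallenged lung replicates 5 and 6. *S100a8* was at 0 to 2702 CPM in lung fibroblasts (median 334) and at 0 to 19.6 CPM in those of primary tumors. *S100b*, at or near 0 in lung, passed the low-count filter mostly through the tumor libraries. The edgeR and DESeq2 calls of these genes in fibroblasts therefore give no support for a difference.

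Sorted MM cells of metastases and of primary tumors were compared with 2 libraries each. None of the 10 members was called by edgeR or DESeq2, and of 14316 genes 0.00699% were, with 470 genes and 4 members at an unadjusted p below 0.05. *S100a16* was at 33.6 and 67.3 CPM in metastasis MM replicates 4 and 5 and at 101 and 102 CPM in primary tumor MM (−1.02 ± 0.37 log2, adjusted p of 1.00). *S100a10* was at 319 and 468 CPM in metastases and at 816 and 619 CPM in primary tumors (−0.93 ± 0.42 log2). Neither overlapped between the sites. *S100a8* and *S100a9* were higher in metastasis MM replicate 4 (8.72 and 10.1 CPM), of whose cells 9.87% were neutrophils, and at 1.18 CPM or less in the other sorted libraries.

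Of the members called higher in MM cells, *S100b* differed between the sites by 0.27 ± 0.39 log2 and *S100a1*, at 315 and 528 CPM in metastases and 382 and 243 CPM in primary tumors, by 0.36 ± 0.43 log2. *S100a6*, not called in MM cells in either direction, differed by 0.14 ± 0.40 log2. Errors of this size leave differences of this order undetectable with 2 libraries. MM cells lay in 2 clusters, 1 with 94.9% of its cells in primary tumor MM replicate 4 and with 3 of 10 MM markers raised, the other with 10 of 10 raised and 51.1% of its cells in metastasis MM replicate 5.

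The receptors and binding partners of the S100 proteins, a list of 19 genes, were called higher in 90 and lower in 80 of 304 tests between classes, where 20.8% of all gene tests were called higher and 17.2% lower. *Ager*, the RAGE receptor, was highest in alveolar type 2 cells at 184 to 996 CPM (median 817), and no class of alveolar type 1 cells, its known main source in lung, was among those named. *Tlr4*, the receptor of calprotectin, was called higher in alveolar macrophages, C1q macrophages and neutrophils. *Anxa2*, the partner of *S100a10*, was called higher in alveolar macrophages, C1q macrophages, ciliated cells and neutrophils, and *Anxa1*, a partner of *S100a11*, in 6 classes, among them ciliated cells, neutrophils and fibroblasts. *Cd36*, a receptor of fatty acids that binds the calprotectin complex, reached medians of 2182 CPM in capillary endothelium and 2164 CPM in aerocytes.

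Between tissues 22 of 343 tests of the partner list were called higher and 11 lower, where 2.06% and 1.65% of all gene tests were. *Anxa1* was higher in large vessel endothelium of metastases (1.44 log2) and primary tumors (2.00 log2) and in aerocytes of metastases (3.89 log2), where *S100a6* was called as well. *Anxa2* was higher in C1q macrophages of metastases and primary tumors (1.27 and 1.42 log2). *Cd14*, the coreceptor of *Tlr4*, was higher in large vessel endothelium (3.67 log2), neutrophils (3.75 log2) and monocytes (2.09 log2) of primary tumors than in those of lung. *Cd36* was lower in large vessel endothelium, by −1.68 log2 in metastases and −3.29 log2 in primary tumors.

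The 7 genes of the family that are not members were rare. *S100g*, a calbindin best known from intestine, had 3396 UMIs in all and stood at 244 to 898 CPM in alveolar type 2 cells (median 514). *S100a14* had 283 UMIs, with a median of 29.6 CPM in club cells, and *S100a3*, *S100a7a*, *S100a2*, *S100a5* and *S100z* had 136, 87, 69, 11 and 3 UMIs. The family together made up 6.59% to 18.2% of the UMIs of neutrophils (median 9.42%), against medians of 0.0999% to 0.585% in the other classes.

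Across the 113 sums, the genes outside the family whose level was most like that of a member were neutrophil genes for *S100a8* and *S100a9* and pigment cell genes for *S100b*. These are Pearson correlations of log2(CPM + 1) over 7375 genes, in points that share libraries and classes, and are given as a description. *S100a8* and *S100a9* had an r of 0.972 with each other and of 0.930 and 0.935 with *Retnlg*, followed by *Cxcr2* and *Il1f9*. *S100b* was closest to *Sox10* (0.908), *Slc45a2* and *Cst6*, and *S100a16* to *Tspan9* (0.923), *Epn2* and *Crip2*. *S100a6* was closest to *Anxa1* (0.759), and *S100a11* to *Plp2* (0.718) and *Anxa2* (0.717). *S100a4* was closest to *Cotl1* (0.736), *S100a1* to *Uqcr11* (0.778), *S100a10* to *Rpl14* (0.776) and *S100a13* to *Myl12a* (0.725).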

How the data were processed

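Single-cell RNA sequencing counts were analysed as deposited by the authors. A count states how many UMIs of a gene a cell had, made with Cell Ranger 6.1.1 on GRCm38 (mm10) and Seurat 3.2.2 per the labels, after cells outside quantile limits of detected genes and of mitochondrial and ribosomal share had been removed by the authors. A deposited table of log-normalized values was not used. Of 24 library names in 110283 barcodes, 5 were identical to another in barcodes and counts and were counted once, which removed 9924 barcodes. The library taken as metastasis MM replicate 6, assigned as the last one left, was identical to metastasis TME replicate 6 and was kept as the latter. Samples were grouped by the labels. Some library names carry another replicate number than the label. These were matched by the mouse number or as the last library left of their group.

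Cells were clustered with Seurat 5.3.0 (2000 variable genes without S100 genes, 17 principal components, 20 neighbors, resolution 0.5). Clusters were named where at least 3 markers of a list were raised. No doublet caller was run. UMIs were summed per library and class with at least 20 cells and tested with edgeR 4.0.16 (filter by expression, TMM, quasi-likelihood F test) on R 4.3.3, with Benjamini-Hochberg adjustment over all genes tested. Classes were compared with library as a block (residual degrees of freedom 82), tissues in 1 fit per class. Where a library was left out of the class fit, genes and dispersion trend were kept and the largest p called in the full fit was the threshold. A left-out library that leaves 1 in a group takes its spread from the others. The order of classes was tested by exact two-sided sign flips of log2(CPM + 1) inside libraries.

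Shares of cells were taken after thinning to 1000 UMIs. Shallower cells were left out, 1416 of 50364 MM cells and 121 of 2717 neutrophils. Intervals and floors cover counting error only. The fits were also run on simulated counts. These were drawn independently for each sum, with no effect of library, run or free RNA, so they give no support to single calls. DESeq2 1.42.0, RLE size factors, other cell minimums, resolution 1.0, S100 genes kept in the clustering and the replicate block were alternatives. The restriction to run 3 was added after the data had been seen. Tables were handled in Python 3.11.15 (pandas 2.3.3, numpy 2.4.6), permutations ran in scipy 1.17.1 and plots were drawn with matplotlib 3.10.9. Gene positions are from the annotation of GRCm38, and the promoter table of RefSeq had an entry for 9 of 10 members. Named genes are the 10 members, the rest of the family, 19 receptors and partners, and for each member the 3 genes with the highest correlation among those with a mean of at least 20 CPM. Members and lists were chosen with earlier results of these data known.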

Additional observations from a re-analysis of the deposited data

Results flagged for a closer look

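In 119 groups of 4 or more libraries, 18 values of members stood apart from the rest of their group by Dixon's ratio, where chance gives about 5% of groups. Of these, 11 came from unchallenged lung replicate 6 and 4 from metastasis TME replicates 1-3. The groups share libraries, so the values are not independent of each other. Both *S100b* values among the 18 are 1 UMI in a group whose other libraries were at 0, where any count stands apart.

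In unchallenged lung replicate 6, B cells held 2422 CPM of *S100a8* (nearest other lung library 63.2 CPM), 2602 CPM of *S100a9* (99.4 CPM), 341 CPM of *S100a4* (45.2 CPM), 104 CPM of *S100a1* (13.6 CPM) and 0.439 CPM of *S100b* (0 CPM). C1q macrophages of this library held 1322 CPM of *S100a8* (199 CPM) and 1396 CPM of *S100a9* (236 CPM), and monocytes 1565 CPM of *S100a8* (215 CPM) and 43.8 CPM of *S100a1* (25.9 CPM). Its neutrophils held 238 CPM of *S100a4* (78.4 CPM) and 87.5 CPM of *S100a13* (69.6 CPM).

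In metastasis TME replicates 1-3, C1q macrophages held 951 CPM of *S100a8* (nearest other metastasis library 67.3 CPM) and 1018 CPM of *S100a9* (56.4 CPM). Monocytes held 1964 CPM of *S100a8* (78.4 CPM) and 1520 CPM of *S100a9* (125 CPM). Summed neutrophil genes were also high in the other cells of these libraries, as given above, and their part in these values was not tested. In unchallenged lung replicate 5 C1q macrophages held 480 CPM of *S100a10* (330 CPM) and neutrophils 0.328 CPM of *S100b* (0 CPM), and in replicate 1 monocytes held 174 CPM of *S100a13* (127 CPM).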

How the results depend on the processing

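The counts of calls by class stayed within 1.5 times under each alternative, at 34 to 42 higher and 35 to 39 lower with 1 library left out, and at 37 higher and 33 lower with no replicate block. The counts between tissues did not. The 15 calls higher became 24 with DESeq2, 45 with no low-count filter and 23 with run 3 only, and the 5 calls lower became 9, 24 and 12, and 8 with at least 10 cells. With 1 library left out they ran from 6 (without metastasis TME replicate 5) to 18 higher, and from 3 (without unchallenged lung replicate 6 or metastasis TME replicate 6) to 7 lower. In sorted MM cells 1 member was called higher with no low-count filter, and 0 to 0 in either direction with 1 library left out. The share of all genes called under these alternatives is not given, so their counts show no excess of members.

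The replicate block gave 18 calls higher and 7 lower between tissues in the 20 comparisons where it could be fitted, and 0 and 0 in sorted MM cells, and 9 of the 20 tissue calls were lost under it. These losses are given beside the results above. Some pairs given above as not called were called under the block, and these are not listed. Pairing by number was partial. A number marks the run in each group, unchallenged lung included, but replicates 5 and 6 are in 1 run, and mice are shared between the tumor sites in replicates 1-3, 5 and 6 and not in replicate 4 or with unchallenged lung. Deviations of 46 same-numbered library pairs correlated at −0.23 to 0.26, with 16 over 0.1, and at 0.25 in sorted MM cells.

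In sorted MM cells, where no member was called, differences near 0 changed sign. With all cells of the sorted libraries *S100a11* was at 0.27 and *S100b* at −0.20 log2. With 1 library left out *S100a1* ran from −0.036 to 0.91, *S100a4* from −0.92 to 0.35, *S100a11* from −0.63 to 0.083, *S100a13* from −1.09 to 0.36 and *S100b* from −0.00066 to 0.61.

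Shares depended on depth. The median share of neutrophils with *S100a8* was 93.0% at 500 UMIs, that of monocytes with *S100a4* was 72.9% without thinning (47.1% thinned), and that of MM cells with *S100b* was 15.0% at 500 UMIs and 64.6% without thinning. With 2 to 4 libraries a tissue, smaller differences were not detectable. The cause of each shift was not tested.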
